A study of Homo sapiens with 18 samples.

Results

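Collagens, laminins, fibronectin and a few associated proteins make up much of the matrix that cells lay down around themselves. The genes described here are those whose symbol names a collagen chain (COL, a number, A, a number) or a laminin chain (LAMA, LAMB or LAMC and a number), together with FN1, SPARC, THBS1, TNC and FBN1. The rule found 61 genes among the 58051 in the count files, 44 of them collagen chains, 12 laminin chains and 5 others. Of these, 38 had enough counts to be tested and 23 did not.

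Collagen chains join as trimers in the endoplasmic reticulum, are secreted and then assemble into fibrils, networks or anchoring filaments. Laminins are trimers of an alpha, a beta and a gamma chain and, with the collagen IV network, form the basement membrane on which epithelia rest. The retinal pigment epithelium lies on such a membrane, the innermost layer of Bruch's membrane, and contributes to making it. Fibronectin forms fibrils that cells pull on through integrins.

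RNA was sequenced from hTERT RPE-1 cells, a human retinal pigment epithelial line immortalised with telomerase. The cells, grown in 10% serum, had been held in 0.1% serum for 48 h and were in G0/G1 by their label. In the etoposide arm they received 50 µM etoposide, which traps topoisomerase II on cleaved DNA, for 30 min, and the other arm is named DMSO in the sample titles. Transcription was then blocked with 10 µM triptolide, which acts on the TFIIH helicase, and RNA was collected at time points 0, 20 and 40 in each arm. The labels give no unit for these time points and do not say whether triptolide had already been added at 0, so they serve as names here. Each of the 6 groups holds 3 libraries, called independent replicates and numbered 1 to 3, all from the same cell line.

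The libraries held 7957691 to 11580219 counts each, and 3 counts, used as the floor of detection, equalled 0.259 to 0.377 CPM (counts scaled to a library total of 1e6). Values are CPM scaled by TMM, and log2 changes, standard errors (SE), intervals and p-values come from the quasi-likelihood test of edgeR over 14186 genes unless another tool is named. A gene was called at a Benjamini-Hochberg adjusted p below 0.05. Some markers of the label were found and others not: KRT8 and KRT18 averaged 698 and 656 CPM, MITF 43.2 CPM and OTX2 26.4 CPM, whereas RPE65 had 28 counts and TYR 2 counts in all 18 libraries together and DCT and TTR had none. Of 12 mesenchymal markers 9 were tested, led by VIM at 10656 CPM and TAGLN at 799 CPM, with S100A4 at 1.64 CPM, while PDPN had 7 counts and DPT and CDH11 1 count each. Of 9 markers of other epithelia only KRT7 was tested, at 45.9 CPM, and CDH1 and KRT5 had no count. A change in CPM is relative to the other RNAs of a library, so that fewer cells and less RNA per cell cannot be told apart. For the same reason an unchanged CPM does not show that the amount of an RNA stayed the same.

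The matrix genes took 1.81% to 2.25% of the counts in the etoposide libraries and 1.45% to 2.27% in the DMSO libraries. FN1, which encodes fibronectin, accounted for 63.6% of the counts of all 61 genes. Its share of a library was highest in etoposide 0 number 2, at 1.51% (exact Clopper-Pearson 95% interval 1.51% to 1.52%), and lowest in DMSO 40 number 1, at 0.894% (0.889% to 0.900%). These intervals cover counting error only. Per kb of annotated exons FN1 averaged 710 ± 101 CPM (SD over 18 libraries), which ranked 22 among the tested genes. SPARC, a collagen-binding matricellular protein, followed at 200 ± 40.8 CPM per kb and THBS1, thrombospondin, at 130 ± 33.0 CPM per kb. The next were the laminin chain LAMB1 (75.9 ± 12.1 CPM per kb), the short-chain collagen COL8A1 (61.9 ± 6.87 CPM per kb) and the laminin chain LAMC1 (50.8 ± 6.09 CPM per kb). FBN1, the fibrillin of microfibrils, COL12A1, a collagen that associates with fibrils, and TNC, tenascin, came next with 41.5, 40.4 and 35.7 CPM per kb. This order depends on the length used. Per kb of the longest transcript COL4A2, at 58.3 CPM, lay above FBN1 (56.7), LAMC1 (54.2), TNC (45.1) and COL12A1 (43). FN1 stood clear of SPARC by more than their SDs, and THBS1 of LAMB1. SPARC and THBS1 overlapped within their SDs, as did each pair of neighbours from LAMB1 to TNC. These SDs include differences between replicate numbers, which genes read in the same libraries can share, so such overlap does not settle the order within a library. Read within each library, SPARC lay above THBS1 per kb throughout.

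**Figure D1:**
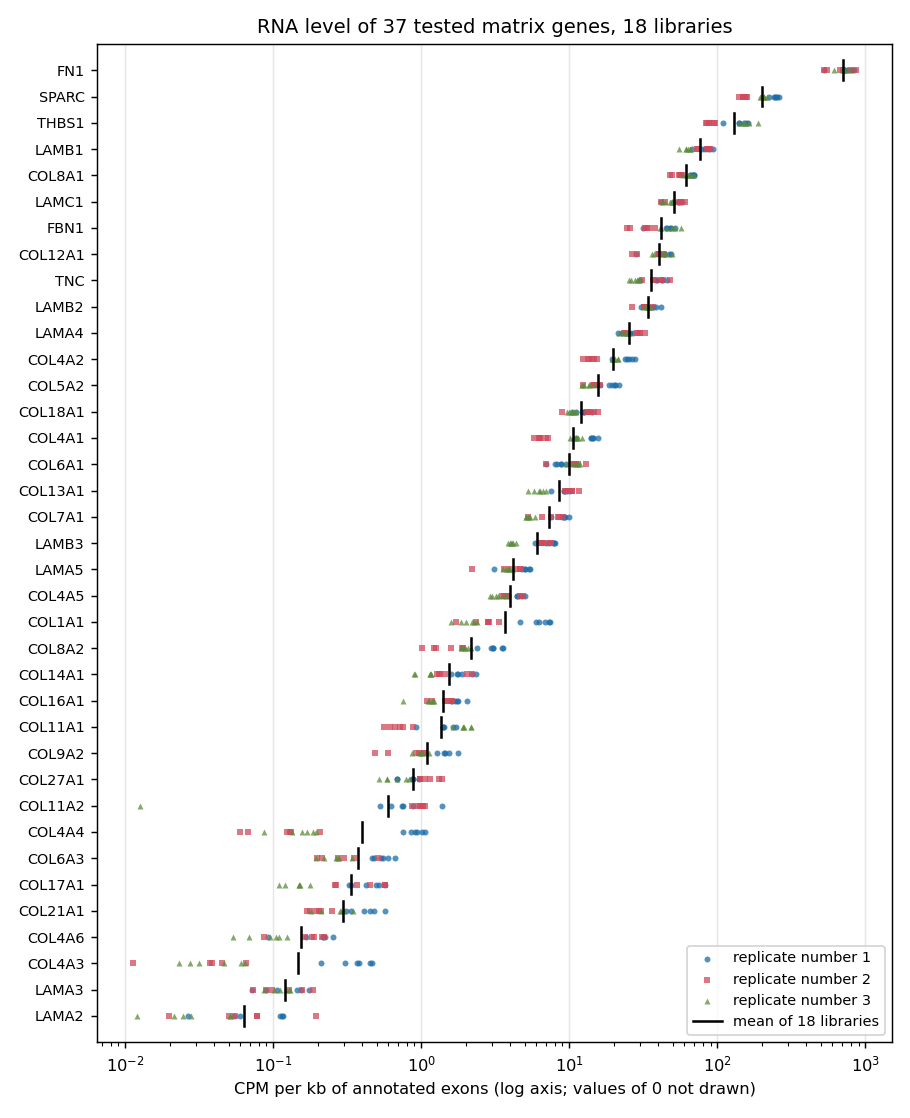
RNA level of 37 of the 38 tested matrix genes in CPM per kb of annotated exons on a log axis, with 1 point per library coloured by replicate number and a black bar at the mean of 18 libraries. FN1 lies at 710 CPM per kb and LAMA2 at 0.0638 CPM per kb, and for COL4A3 and COL4A4 the points of number 1 stand apart to the right.

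The level depended on which chain of a trimer was read. Among the laminins, the beta chain LAMB1 and the gamma chain LAMC1 were the most abundant, with a ratio per kb of 1.23 to 1.74 across libraries (median 1.53). LAMB2, another beta chain, stood at 0.463 to 0.82 times LAMC1 per kb. The leading alpha chain was LAMA4 (25.4 ± 2.99 CPM per kb), found in vessel and mesenchymal basement membranes, which exceeded LAMA5, the main alpha chain of mature epithelial basement membranes, 4.48-fold to 13.2-fold per kb. The beta chain LAMB3 and the alpha chain LAMA3, found in laminins of epithelia, were unequal, with averages of 6.09 CPM per kb for LAMB3 and 0.120 CPM per kb for LAMA3. LAMA1 and LAMC3 had no count in any library, and 0 counts in a library allow at most the 0.259 to 0.377 CPM named above.

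Some collagens that normally pair were measured for one chain and hardly for the other. COL1A1, the main chain of type I collagen, averaged 36.4 ± 20.5 CPM (SD over 18 libraries), whereas its partner COL1A2 had 21 counts in all libraries together. COL5A2, a chain of the fibril-nucleating type V, averaged 118 ± 23.2 CPM, and its usual partners COL5A1 and COL5A3 had 14 counts each. COL6A1, a chain of the beaded-filament type VI, averaged 53.4 ± 9.16 CPM, COL6A3 7.34 ± 2.98 CPM, and COL6A2 had 51 counts. In type VIII, COL8A1 exceeded COL8A2 by 19.2-fold to 55.4-fold per kb. COL3A1, the fibril collagen of soft tissues, had 70 counts, the most among the 23 genes below the filter, and 6 of those 23 had none.

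COL28A1 had 51 counts, COL10A1 42, COL9A3 38, LAMB4 27, COL24A1 16, COL15A1 14 and COL25A1 9. The remaining genes below the filter were COL2A1 with 4 counts, COL26A1 and COL20A1 with 2 each, and COL6A6 and COL19A1 with 1 each. COL6A5, COL9A1, COL22A1 and COL23A1 had 0 counts, as had LAMA1 and LAMC3. The cartilage collagens COL2A1, COL9A1, COL9A3 and COL10A1 were thus at or near the floor, whereas COL11A1 averaged 12.3 ± 5.12 CPM and COL9A2 4.59 ± 1.33 CPM. Other tested collagens include COL18A1 (102 ± 16.3 CPM), the precursor of endostatin, and COL7A1 (81.1 ± 20.1 CPM), which forms anchoring fibrils. COL13A1 (50.3 ± 11.2 CPM) and COL17A1 (2.36 ± 1.19 CPM) are transmembrane collagens. For COL18A1, 16.43% of the annotated exon bases overlap SLC19A1 on the opposite strand, and the strand setting of the counting is not given in the sources used here.

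ADM, IER2 and SOCS3, whose RNAs are known to be short-lived, were lower at 40 than at 0 in both arms. ADM, which encodes the peptide adrenomedullin, had 26.7, 32.7 and 25.8 CPM at 40 against 129, 116 and 103 CPM at 0 in the etoposide arm (log2 change −2.03, SE 0.16, edgeR adjusted p = 9.5e-06). In the DMSO arm it had 19.5, 19.4 and 21.0 CPM at 40 against 148, 142 and 117 CPM at 0 (log2 change −2.76, SE 0.16, edgeR adjusted p = 1.45e-07). IER2 and SOCS3, an early-response gene and a feedback inhibitor of cytokine signalling, were called lower at 40 as well, with log2 changes of −1.46 and −2.21 in the etoposide arm and −2.25 and −3.16 in the DMSO arm. Falls of this size at 40 were thus called for these 3 genes, which does not show what smaller falls could be detected.

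No matrix gene was called at 40 against 0 in either arm. In the etoposide arm edgeR called 0 of the 38 matrix genes, against 0.204% of all tested genes (29 genes, all lower), and 0 of the 38 had an unadjusted p below 0.05, against 3.04% of all genes. In the DMSO arm it called 0 of the 38, against 0.423% of all tested genes (60 genes, all lower), and 0 of the 38 had an unadjusted p below 0.05, against 4.06% of all genes. Called shares so small would give fewer than 1 call among 38 genes, so that the absence of calls does not set the matrix genes apart. DESeq2 and limma-voom also called 0 of the matrix genes in both arms. The median log2 change of the matrix genes was 0.033 in the etoposide arm and −0.025 in the DMSO arm, beside 0.003 and 0.006 for all tested genes. Both turned sign with 1 library left out, the first to −0.103 without etoposide 40 number 1 and the second to 0.123 without DMSO 0 number 1.

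The replicate numbers paired the libraries, and a fit with the number as a block called more genes. It called 1.01% of all tested genes in the etoposide arm and 1.22% in the DMSO arm, and 0 of the 38 matrix genes in both. At an unadjusted p below 0.05 that fit held 0 matrix genes in the etoposide arm (6.43% of all genes) and 1, THBS1, in the DMSO arm (8.02% of all genes). Its 95% intervals lay within ±0.5 on the log2 scale for 24 of the 38 genes in the etoposide arm and 21 in the DMSO arm, which bounds their relative change between 0 and 40. In data simulated for 40 against 0 of the DMSO arm over 14186 genes, the fit with the block recovered 32% of log2 changes of 0.5 and 92% of changes of 1. The fit without it recovered 1% and 53% in a separate simulation. Each simulation drew its counts from the model of the fit being tried, so the fits were not compared on the same data. Among the genes left unchanged, 7 were called with the block and 0 without it. All changed genes averaged at least 5 CPM, as 29 of the 38 matrix genes did, so recovery at lower levels was not tested.

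**Figure D2:**
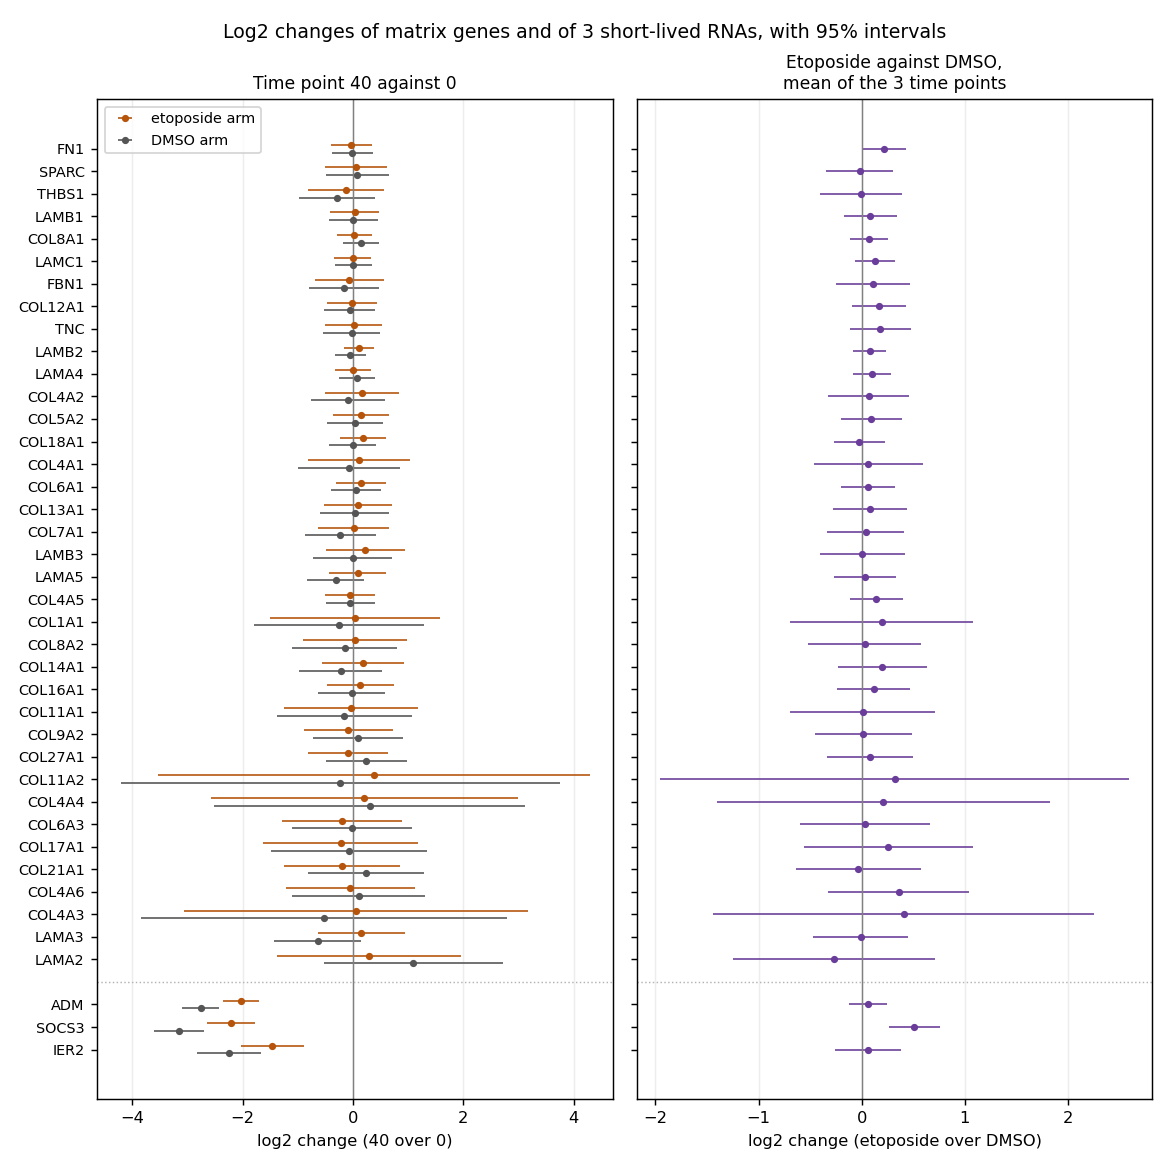
Log2 changes with 95% intervals from edgeR without the replicate block, for 37 of the 38 matrix genes and, under the dotted line, 3 short-lived RNAs. The left panel gives time point 40 over 0 in the etoposide arm (brown) and the DMSO arm (grey), and the right panel gives etoposide over DMSO as the mean of the 3 time points. The intervals of the matrix genes include 0 in the left panel, whereas those of ADM, SOCS3 and IER2 lie below it. In the right panel FN1 lies just above 0.

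FN1 showed no detectable change in CPM through the time points. In the etoposide arm FN1 had 12675, 15046 and 13698 CPM at 0, 13334, 11710 and 11985 CPM at 20, and 14437, 13663 and 12445 CPM at 40. In the DMSO arm it had 12419, 9096 and 12672 CPM at 0, 14117, 9567 and 10624 CPM at 20, and 9155, 12161 and 12501 CPM at 40. The 3 values of each time point overlap with those of the other time points within both arms. The log2 change at 40 against 0 was −0.03 in the etoposide arm (SE 0.17, 95% interval −0.40 to 0.34) and −0.02 in the DMSO arm (SE 0.17, −0.38 to 0.35). The difference of these changes was −0.02 (SE 0.25, edgeR adjusted p = 1).

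THBS1, which encodes a matricellular protein that restrains vessel growth and activates latent TGF-beta, had the smallest p of the matrix genes at 40 against 0 of the DMSO arm in the fit with the block. In the etoposide arm THBS1 had 1286, 877 and 1494 CPM at 0, 1421, 888 and 1364 CPM at 20, and 1280, 769 and 1283 CPM at 40. In the DMSO arm it had 1393, 784 and 1721 CPM at 0, 1472, 803 and 1403 CPM at 20, and 1000, 809 and 1382 CPM at 40. All 3 etoposide numbers were lower at 40 than at 0, as were numbers 1 and 3 of the DMSO arm, but the groups overlap because number 2 was low throughout. With the block the log2 change at 40 was −0.14 in the etoposide arm (SE 0.11, 95% interval −0.36 to 0.08) and −0.25 in the DMSO arm (SE 0.11, −0.47 to −0.03, unadjusted p = 0.0285, edgeR adjusted p = 0.509). Without DMSO 40 number 1 the value in the DMSO arm was −0.12 with the block.

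THBS1 carries 8 ATTTA pentamers, the core of AU-rich elements that mark many unstable mRNAs, in its 3′ untranslated region (GENCODE transcript ENST00000260356, chromosome 15, plus strand). Its densest stretch, bases 1786 to 1815 of that region, is shown because it carries a pair of them, given in capitals.
THBS1: attgtgtagatatgctATTTAaataATTTA
At least 5 such pentamers were found in 11 of the 38 matrix genes and in 28.5% of the tested genes with a coding transcript. The median density per kb of 3′ untranslated region was 2.17 in the matrix genes and 1.86 in all genes with a region of at least 200 bases. THBS1, with a region of 4097 bases, had 1.95 per kb, below the median of the matrix genes. COL8A1 and FBN1 carried the most, 12 each, and, as for every matrix gene, their log2 changes at 40 were not called.

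For SPARC, COL8A1 and LAMB1 the values at 40 lay close to those at 0. SPARC had 1186, 742 and 1006 CPM at 40 and 1216, 675 and 942 CPM at 0 in the etoposide arm, and 1257, 750 and 1041 CPM at 40 and 1211, 717 and 955 CPM at 0 in the DMSO arm. COL8A1 had 654, 533 and 627 CPM at 40 and 651, 526 and 608 CPM at 0 in the etoposide arm, and 642, 540 and 650 CPM at 40 and 620, 462 and 576 CPM at 0 in the DMSO arm. LAMB1 had 705, 705 and 517 CPM at 40 and 640, 717 and 530 CPM at 0 in the etoposide arm, and 549, 690 and 531 CPM at 40 and 668, 596 and 504 CPM at 0 in the DMSO arm. The times overlap in both arms, and in each of these groups number 2 was lowest for SPARC and COL8A1 and number 3 for LAMB1. With the block the 95% interval of the log2 change of COL8A1 was −0.13 to 0.18 in the etoposide arm and −0.01 to 0.31 in the DMSO arm.

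Among the laminin chains, LAMA3 and LAMA5 lay lower in all DMSO libraries at 40 than in those at 0, though neither passed the test. LAMA3 had 2.12, 1.88 and 1.88 CPM at 40 and 1.32, 2.71 and 1.27 CPM at 0 in the etoposide arm, and 1.05, 1.32 and 1.79 CPM at 40 and 2.28, 2.29 and 1.92 CPM at 0 in the DMSO arm. LAMA5 had 76.1, 66.4 and 55.3 CPM at 40 and 72.4, 62.5 and 51.2 CPM at 0 in the etoposide arm, and 44.3, 57.3 and 56.3 CPM at 40 and 68.8, 67.8 and 59.5 CPM at 0 in the DMSO arm. The groups did not overlap for 0 of the 38 matrix genes in the etoposide arm, against 7.92% of all tested genes, and for 2 in the DMSO arm, against 6.2%. The log2 change was −0.64 for LAMA3 (SE 0.37, unadjusted p = 0.107) and −0.31 for LAMA5 (SE 0.24, unadjusted p = 0.22) in the DMSO arm, both with an edgeR adjusted p of 1. Without DMSO 40 number 1, which was low for most matrix genes, LAMA3 stood at −0.48.

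Between 0 and 20 no matrix gene was called either. With edgeR 0 of the 38 were called in the etoposide arm and 0 in the DMSO arm, where 0% of all tested genes were called in both arms. At an unadjusted p below 0.05 there were 0 matrix genes in each, against 1% and 1.4% of all genes. The values of the 2 times overlapped for all 38 genes in both arms, against 3.71% and 3.29% of all genes without overlap. The smallest p without the block belonged to FN1 in the etoposide arm (log2 change −0.16, SE 0.17) and to COL16A1, a fibril-associated collagen, in the DMSO arm (log2 change 0.25, SE 0.29). COL16A1 had 16.5, 14.7 and 11.2 CPM at 20 and 15, 13.7 and 7.04 CPM at 0 in the DMSO arm, higher in each number with overlapping times. With the block 1 of the 38, COL7A1, had an unadjusted p below 0.05 in the etoposide arm, against 2.73% of all genes, and 0 in the DMSO arm, against 2.76%. COL7A1 had 98.5, 58.7 and 58.0 CPM at 20 and 104, 92.4 and 65.3 CPM at 0 in the etoposide arm, lower in each number with overlapping times. Its log2 change with the block was −0.28 (SE 0.13, 95% interval −0.55 to −0.02, unadjusted p = 0.0369, edgeR adjusted p = 0.999), and it was not among the genes below that p without etoposide 20 number 2. The median over the matrix genes was −0.095 with etoposide and −0.015 with DMSO, beside −0.003 and −0.004 for all genes, and both turned sign with 1 library left out, to at most 0.023 without etoposide 0 number 1 and 0.175 without DMSO 0 number 1.

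Etoposide against DMSO gave no called matrix gene at any time point. EdgeR called 0 of 38 at 0, 20 and 40, and 0% of all tested genes at each. At an unadjusted p below 0.05 there were 0 matrix genes at each time point, against 2.66%, 0.761% and 0.98% of all genes, and DESeq2 and limma-voom called none of the matrix genes. The median log2 difference of the matrix genes was 0.089 at 0, 0.033 at 20 and 0.163 at 40, beside −0.006, 0.003 and −0.005 for all genes. At 40, 31 of 38 matrix genes had a positive value, against 48.9% of all genes. With 1 library left out the median at 0 went as low as −0.026, without etoposide 0 number 1, and that at 20 as low as −0.182, without etoposide 20 number 1. The median at 40 was 0.006 without etoposide 40 number 1, and with the block 0.136 with all libraries and 0.025 without DMSO 40 number 1.

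Both of these libraries stood apart for the matrix genes. Among the 6 libraries of number 1, etoposide 40 had the highest value for 17 of the 38 genes (17.2% of all tested genes) and DMSO 40 the lowest for 28 of the 38 (28.1% of all tested genes). The matrix genes' median deviation from the mean of number 1 was 0.168 in etoposide 40 number 1 and −0.262 in DMSO 40 number 1 on the log2 scale. Genes whose longest transcript exceeds 6000 bases, as in 25 of the 38 matrix genes, deviated by 0.010 and −0.103 in these libraries, and genes of 2000 bases or less by 0.007 and 0.094. The part of transcript length in the low values of DMSO 40 number 1 was not tested.

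In the fit without the block, FN1 had the smallest p of the matrix genes for etoposide against DMSO at 0 and over the mean of the 3 time points. At 0 its groups did not overlap, with 12675 CPM as the lowest etoposide value and 12672 CPM as the highest DMSO value, and it was the 1 matrix gene of 38 with this property, against 6.21% of all tested genes. The log2 difference at 0 was 0.28 (SE 0.17, 95% interval −0.09 to 0.65, unadjusted p = 0.131, edgeR adjusted p = 1). Over the mean of the 3 time points it was 0.22 (SE 0.10, 95% interval 0.003 to 0.429, unadjusted p = 0.0469, edgeR adjusted p = 1). Without the block 1 matrix gene, FN1, had an unadjusted p below 0.05 in that comparison, against 1.77% of all genes, and edgeR called 0% of all genes there. With the block there were 2, FN1 and TNC (TNC log2 difference 0.18, SE 0.07, unadjusted p = 0.0225, edgeR adjusted p = 0.884), against 5.27% of all genes. With the block the value of FN1 was 0.22 (SE 0.08, edgeR adjusted p = 0.884), 0 of the 38 matrix genes and 0.0282% of all genes being called. Without DMSO 0 number 2, in which antisense genes took 1.42% of the counts against 0.217% to 0.253% elsewhere, the difference at 0 was 0.14.

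At 40, LAMB2 and LAMA3 had groups that did not overlap, 2 of 38 against 4.11% of all tested genes. LAMB2 had 287, 251 and 233 CPM with etoposide and 211, 224 and 228 CPM with DMSO. Its log2 difference was 0.22 (SE 0.13, 95% interval −0.05 to 0.49, unadjusted p = 0.108, edgeR adjusted p = 1), and with the block 0.12 without DMSO 40 number 1. TNC, which had 440, 416 and 283 CPM with etoposide and 288, 400 and 250 CPM with DMSO at 40, was higher with etoposide in each number, but the groups overlap. With the block its log2 difference was 0.27 (SE 0.12, unadjusted p = 0.0402, edgeR adjusted p = 0.996). With the block, 5 of 38 matrix genes had an unadjusted p below 0.05 at 40 (COL7A1, LAMB2, COL11A2, COL14A1 and TNC), against 3.51% of all genes, and 0 of the 38 were called, against 0.00705% of all genes. The smallest p of these was that of COL11A2 (log2 difference 0.81, SE 0.30, unadjusted p = 0.0142, edgeR adjusted p = 0.996), which had 9.29 and 6.58 CPM with etoposide and 3.54 and 5.81 CPM with DMSO in numbers 1 and 2, and 0 CPM in both arms in number 3. Without DMSO 40 number 1 none of these 5 had an unadjusted p below 0.05 (0 of 38, against 2.12% of all genes). At 20 the 2 arms overlapped for each of the 38, against 2.8% of all genes without overlap, and the smallest p was that of COL18A1 (log2 difference −0.17, SE 0.20). COL18A1 had 122, 75.7 and 88.4 CPM with etoposide and 107, 125 and 89.2 CPM with DMSO at 20, higher with etoposide in number 1 and lower in the others.

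**Figure D3:**
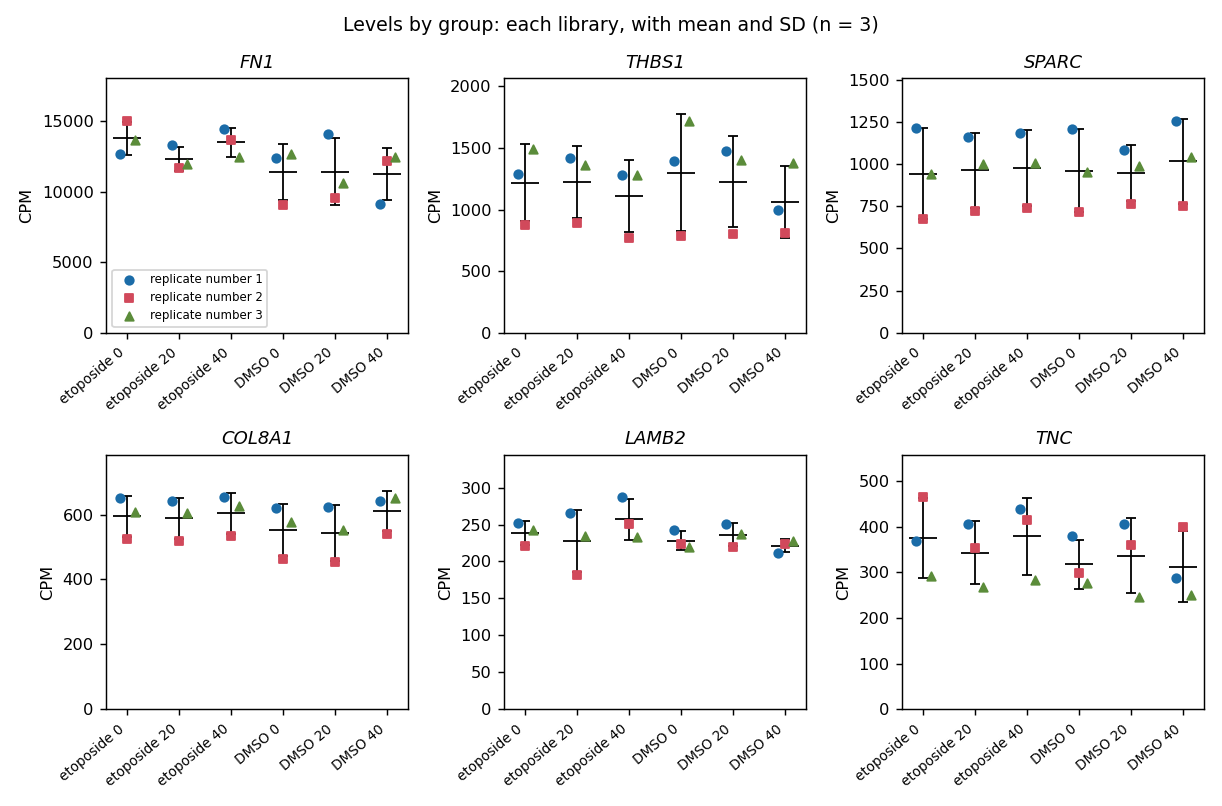
CPM of FN1, THBS1, SPARC, COL8A1, LAMB2 and TNC in each library by group, with the mean and SD of 3 libraries in black and the replicate number as colour and shape. In THBS1, SPARC and COL8A1 the red squares of number 2 are the lowest in each of the 6 groups. FN1 reaches 15046 CPM in etoposide 0 and 9096 CPM in DMSO 0.

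The change from 0 to 40 did not differ detectably between the arms for any matrix gene. For the etoposide change minus that of the DMSO arm, edgeR called 0 of the 38 and 0% of all tested genes, and 0 of the 38 had an unadjusted p below 0.05, against 1.34% of all genes. The smallest p was that of LAMA3 (0.79 on the log2 scale, SE 0.52, 95% interval −0.32 to 1.90, unadjusted p = 0.151, edgeR adjusted p = 1). With the block the 95% interval lay within ±0.5 for 13 of the 38 genes. For the others, which are most of them, a difference of that size was not excluded.

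The larger differences in matrix RNA lay between the replicate numbers. Each number is a repeat of all 6 groups, so this is a description of how far the repeats differ and concerns no treatment. An F test of the number called 32 of the 38 matrix genes, against 53% of all tested genes. Among genes averaging at least 5 CPM it called 24 of 29 matrix genes, against 58.1%. The mean of the highest number exceeded that of the lowest by more than 2-fold in 12 of the 38, against 11.8% of all genes, and in 5 of the 29, against 5.97%. Over the 29 matrix genes of at least 5 CPM, the highest group mean exceeded the lowest by a median of 1.17-fold and at most 1.39-fold. The highest library exceeded the lowest by a median of 2.08-fold. Single libraries always range at least as widely as their group means, so these 2 medians are not a comparison of numbers with groups. FN1, LAMC1, COL12A1, LAMB2, LAMA5 and LAMA3 were not called.

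COL1A1 averaged 62.9 CPM in the 6 libraries of number 1, 26.2 CPM in those of number 2 and 20.2 CPM in those of number 3 (edgeR adjusted p = 8.9e-09). Its values were 45.4 to 73.2 CPM in number 1, which lie above all libraries of the other numbers. COL11A1, a minor fibrillar chain, averaged 12.9, 6.35 and 17.7 CPM in numbers 1 to 3 (edgeR adjusted p = 8.08e-08). SPARC and THBS1 were lowest in number 2, with 729 and 822 CPM, against 1186 and 1309 CPM in number 1 and 990 and 1441 CPM in number 3. LAMB3 and TNC were lowest in number 3, with 19.2 and 269 CPM, against 34.2 and 381 CPM in number 1. The matrix genes thus differed in which number was high. COL11A2, a chain gene in the MHC region of chromosome 6, averaged 5.53 and 6.62 CPM in numbers 1 and 2 and had 0 CPM in 5 libraries of number 3 and 0.0849 CPM in the other. In a count added after seeing these zeros, 41 of the 83 tested genes that start between 29 and 34 Mb of chromosome 6 had at most 1 count in every library of number 3 and a mean of at least 10 counts in each other number (49.4%), against 0.433% of the tested genes elsewhere and 0 genes with numbers 1 or 2 in its place. A low level of COL11A2 RNA in number 3 and a difference in how reads of this region were assigned cannot be told apart.

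**Figure D4:**
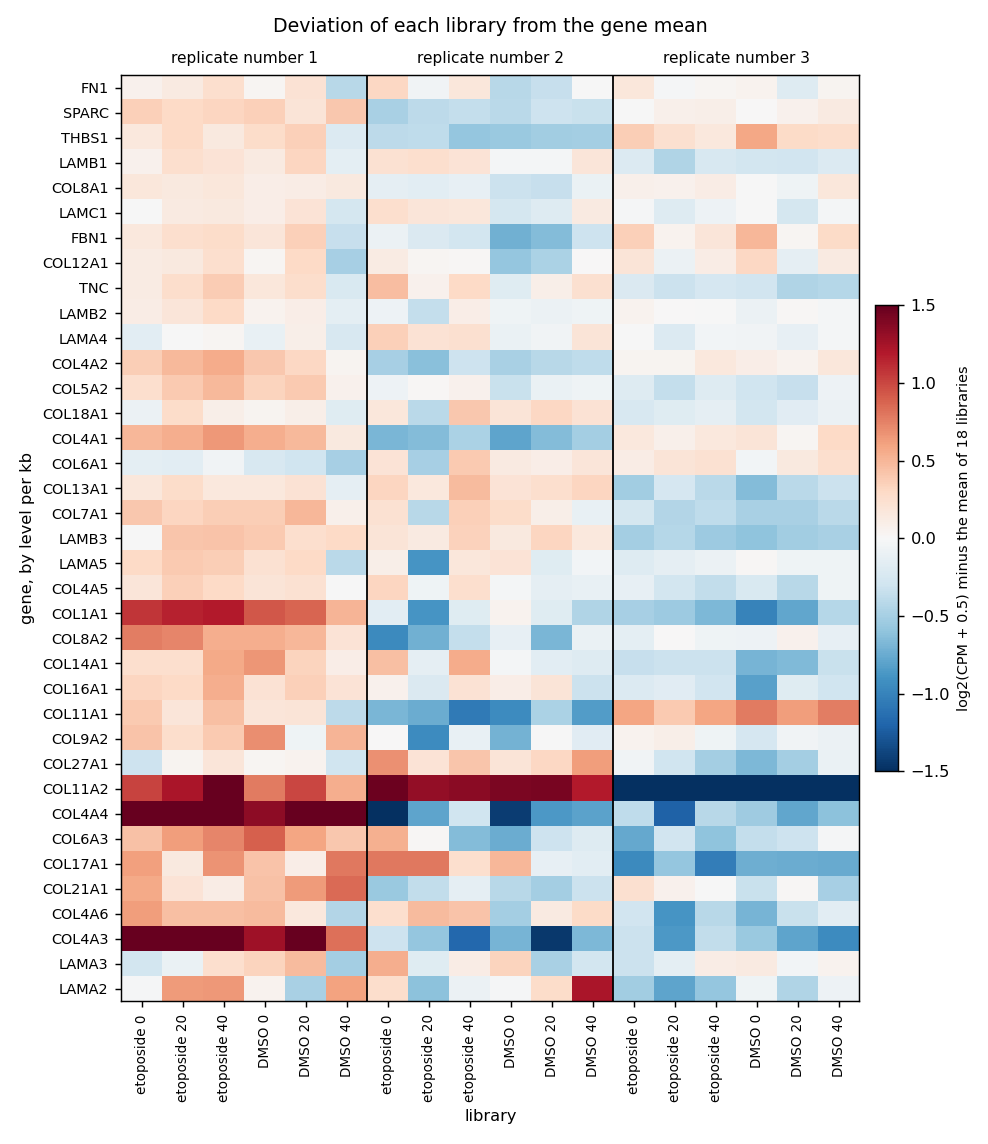
Heat map of 37 of the 38 tested matrix genes, ordered by level per kb, in 18 libraries ordered by replicate number and, within it, by group. Colour gives log2(CPM + 0.5) minus the gene's mean over the libraries, cut at −1.5 and 1.5. Blocks of colour follow the number: COL1A1, COL4A3 and COL4A4 are high in number 1, and COL11A2 is low in number 3. DMSO 40 of number 1 is paler or bluer than the other libraries of number 1 in most rows.

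Type IV collagen is encoded by 3 pairs of genes that lie head to head and are read in opposite directions from a shared stretch, an arrangement long known for this family. COL4A1 and COL4A2, whose chains form the network of nearly all basement membranes, have 126 bases between their starts on chromosome 13 by RefSeq's starts (GRCh38.p14). COL4A3 and COL4A4, chains of the kidney, lung and eye network, have 418 bases between them on chromosome 2, and COL4A5 and COL4A6 have 379 or 1415 on chromosome X, depending on the start of COL4A6. Levels of COL4A1 and COL4A2 moved together between replicate numbers. COL4A3 and COL4A4 shared only a higher level in number 1, since COL4A3 lay around the floor of 3 counts in numbers 2 and 3. The stretch between COL4A1 and COL4A2 and the 250 bases before COL4A3 and before COL4A4 are shown for this reason. Capitals mark CCAAT and GGGCGG on either strand, so that ATTGG and CCGCCC are their reverse forms.
COL4A1-COL4A2 between the starts, chr13:110307158-110307283, plus strand: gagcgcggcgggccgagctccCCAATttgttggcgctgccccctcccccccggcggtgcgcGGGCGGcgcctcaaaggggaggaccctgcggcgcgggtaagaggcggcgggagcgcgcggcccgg
COL4A3 upstream, chr2:227164374-227164623, plus strand: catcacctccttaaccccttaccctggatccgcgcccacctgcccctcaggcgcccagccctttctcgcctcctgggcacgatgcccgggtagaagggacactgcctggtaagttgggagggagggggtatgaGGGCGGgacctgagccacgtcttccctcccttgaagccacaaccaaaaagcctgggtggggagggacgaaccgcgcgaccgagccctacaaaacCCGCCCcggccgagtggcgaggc
COL4A4 upstream, chr2:227164206-227164455, minus strand: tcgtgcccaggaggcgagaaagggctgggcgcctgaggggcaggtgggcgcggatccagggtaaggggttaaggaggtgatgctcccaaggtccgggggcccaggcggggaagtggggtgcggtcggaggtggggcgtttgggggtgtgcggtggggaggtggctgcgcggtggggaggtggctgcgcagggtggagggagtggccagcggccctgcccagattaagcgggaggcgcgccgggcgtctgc
The stretch between COL4A1 and COL4A2 is 80.2% G and C and holds 1 CCAAT and 1 GGGCGG, which 21.1% and 34.6% of 35116 RefSeq promoters hold in the last 126 bases before their start. The COL4A3 window holds 2 GGGCGG and no CCAAT, and the COL4A4 window holds neither. Over 250 bases, 32.0% of promoters hold CCAAT and 42.6% hold GGGCGG.

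COL4A1 and COL4A2 moved together. COL4A2 averaged 475 CPM in number 1, 268 CPM in number 2 and 392 CPM in number 3, and COL4A1 averaged 206, 95.5 and 164 CPM in the same order (edgeR adjusted p for the number 2.48e-08 and 8.97e-10). Across the 18 libraries COL4A2 varied 2.27-fold and COL4A1 2.72-fold, whereas their ratio per kb varied 1.39-fold, between 1.69 and 2.35. The order of the numbers is not particular to this pair, as SPARC on chromosome 5 averaged 1186, 729 and 990 CPM in numbers 1 to 3. LAMB1 and LAMC1, on chromosomes 7 and 1, varied 1.7-fold and 1.44-fold, and their ratio 1.42-fold. The ratio range of gene pairs across the series was not computed. The exons annotated to COL4A2 add up to more than its longest transcript, so that per kb of that transcript its level was 58.3 instead of 19.6 CPM. No treatment comparison called COL4A1 or COL4A2. At 40 against 0 with the block their log2 changes were, in that order, 0.12 and 0.17 in the etoposide arm and 0.00 and −0.05 in the DMSO arm.

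COL4A3 and COL4A4 were low and differed the most between numbers, COL11A2 apart. COL4A4 averaged 9.29 CPM in number 1, 1.22 CPM in number 2 and 1.56 CPM in number 3, and COL4A3 averaged 3.33, 0.302 and 0.387 CPM. In number 1 all libraries exceeded those of the other numbers for both genes, while the values of COL4A3 in numbers 2 and 3 lie around the floor of 3 counts. The ratio of COL4A4 to COL4A3 per kb had a median of 3.03 and was 0.906 at the lowest. It has no upper bound, because COL4A3 had 0 counts in a library. COL4A5 averaged 53.7, 47.9 and 39.1 CPM in numbers 1 to 3, and COL4A6 1.82, 1.64 and 0.861 CPM. The ratio of COL4A5 to COL4A6 per kb ranged from 16.7 to 60.0, wider than that of COL4A2 to COL4A1. COL4A6 had only 4 to 25 counts per library, against 744 to 2518 for COL4A1. Counting error is thus larger in the ratio with COL4A6, and the widths of these ratios are not comparable.

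**Figure D5:**
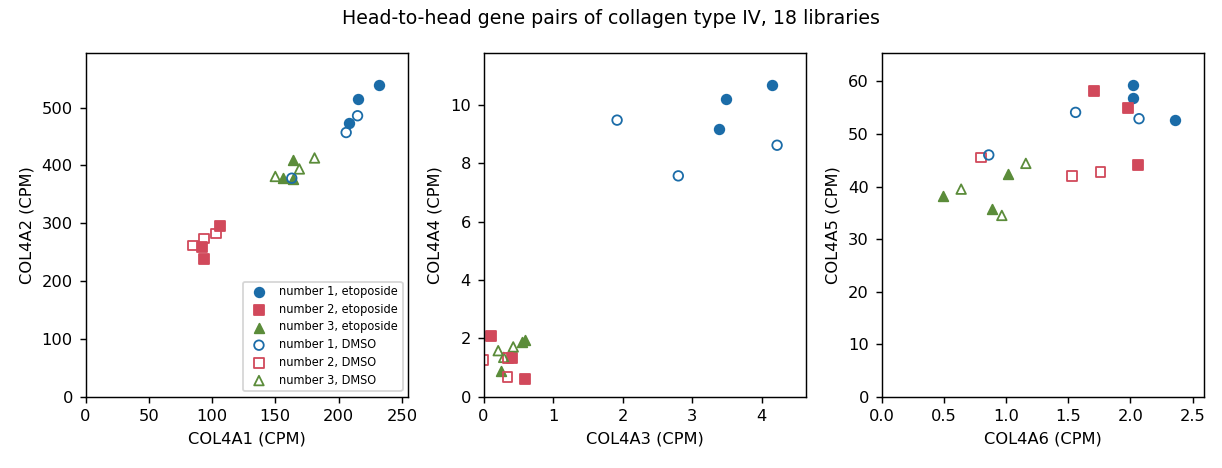
CPM of the partner genes of each head-to-head pair of collagen type IV in 18 libraries, filled for etoposide and open for DMSO, with the replicate number as colour and shape. COL4A1 and COL4A2 lie on a line with number 1 at the top and number 2 at the bottom. COL4A3 and COL4A4 fall into number 1 on one side and numbers 2 and 3 near 0 on the other.

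Genes that act on or with this matrix were read from 4 lists. Of 31 tested collagen-processing and crosslinking enzymes, which include prolyl hydroxylases, the chaperone SERPINH1 (305 CPM on average) and the lysyl oxidase LOX (681 CPM), edgeR called 0 in each of the 9 treatment comparisons, with and without the block. Of 27 tested receptors, mostly integrins, among them ITGB1 (1413 CPM), it also called 0 with and without the block. Without the block it called 0 of 28 proteases and inhibitors, such as MMP14 (1427 CPM), and 0 of 24 other basement membrane and fibre genes. At 40 against 0 the medians of the 4 lists lay between 0.051 and 0.090 on the log2 scale in the etoposide arm and between 0.011 and 0.080 in the DMSO arm.

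With the block, 1 of the 110 tested genes of these lists was called at 40 against 0 in the etoposide arm (CCN1, against 1.01% of all genes) and 3 in the DMSO arm (CCN1, CCN2 and ADAMTS1, against 1.22%), all lower at 40. CCN1, a matricellular ligand of integrins, had 215, 209 and 324 CPM at 40 and 499, 344 and 572 CPM at 0 in the etoposide arm, and 183, 142 and 350 CPM at 40 and 630, 509 and 784 CPM at 0 in the DMSO arm. In both arms every value at 40 lies below every value at 0. Its log2 change with the block was −0.92 in the etoposide arm (SE 0.13, edgeR adjusted p = 9.88e-05) and −1.58 in the DMSO arm (SE 0.13, edgeR adjusted p = 3.95e-08), and without the block the adjusted p was 1 and 0.0928. CCN2, also a matricellular protein, had 449, 289 and 407 CPM at 40 and 570, 386 and 637 CPM at 0 in the DMSO arm, lower in each number with overlapping groups (log2 change −0.47, SE 0.09, edgeR adjusted p with the block 0.00718). ADAMTS1, a protease that cleaves proteoglycans, had 33.6, 48.9 and 39.5 CPM at 40 and 82.3, 69.5 and 71.5 CPM at 0 in the DMSO arm (log2 change −0.90, SE 0.14, edgeR adjusted p with the block 0.000403). Without the block the adjusted p was 1 for CCN2 and 0.104 for ADAMTS1.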

How the data were processed

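Whole-number counts of reads per gene, without normalization, were deposited by the authors for 58051 Ensembl genes in 18 libraries. Libraries were made with the TruSeq Stranded mRNA kit from DNase-treated RNA, per the labels' protocols. The counts came from featureCounts after HISAT2 alignment to GRCh38 and bcl2fastq, per the submitters' processing notes. Tool versions, gene annotation, strand setting and multi-mapping rules were not given in the sources used here, so overlapping genes and near-identical copies may share reads. Positions, exon lengths and transcripts were taken from GENCODE release 29 and promoters from RefSeq.

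Counts were tested with edgeR 4.0.16 (robust quasi-likelihood, R 4.3.3) in 1 model of the 6 groups. TMM factors were 0.978 to 1.02, and the default filter kept 14186 genes with 99.84% of the counts. Benjamini-Hochberg adjustment ran over all of them. The p-values set a difference against the spread between the libraries of a group. With the replicate number as a block, differences between the numbers are first taken out of that spread. A fit with the replicate number as a block, DESeq2 1.42.0 and limma-voom 3.58.1 were alternatives. The matrix genes and all lists were chosen with earlier results of these data known.

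The numbers were taken as pairs because the deviations of same-numbered libraries from their group means, in log2(CPM + 0.5), correlated over genes by 0.336 to 0.918 in all 45 pairs, against a minimum of 0.1. The block is given where it changes a call or a count. Values in each compared library are given for some of the matrix genes with the highest CPM per kb and for those with the smallest p in a treatment comparison. List genes are named where called and otherwise as examples with their level, and ADM, IER2 and SOCS3 are given as known short-lived RNAs. The test was tried on simulated counts with known changes. Values of 1 tested matrix gene and of 1 list gene are not reported here, though both stay in the fits and counts.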

Additional observations from a re-analysis of the deposited data

Results flagged for a closer look

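LAMA5, the alpha chain of epithelial basement membranes, had same-numbered changes of opposite sign in the arms between 0 and 40. In log2(CPM + 0.5) the same-numbered differences were 0.07, 0.09 and 0.11 with etoposide and −0.63, −0.24 and −0.08 with DMSO. The test of this difference gave 0.40 on the log2 scale (SE 0.35, 95% interval −0.33 to 1.13, unadjusted p = 0.263, edgeR adjusted p = 1), so it did not pass the threshold. LAMA5 was picked by this pattern, as the only one of the 38 tested matrix genes whose same-numbered changes were all positive in one arm and all negative in the other. The share of all tested genes with the pattern was not computed, so it does not set LAMA5 apart. The lowest DMSO value, 44.3 CPM, came from DMSO 40 number 1, the library in which 28 of the 38 matrix genes were lowest of its number.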

How the results depend on the processing

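No matrix gene was called in any of the 9 treatment comparisons under any of 323 alternative fits, 36 per comparison and 35 for the mean of the 3 time points. They changed the scaling, the filter, the test, the groups fitted or the libraries, or added the replicate block, and those joining the block to another change were added after seeing the data. With the replicate block edgeR called 143 genes in place of 29 at 40 against 0 of the etoposide arm and 173 in place of 60 in the DMSO arm, with 0 matrix genes. DESeq2 called 68 and 108 genes, and fits of only the compared groups 6 and 12. In the comparisons other than 40 against 0 within an arm, the main fit called 0 genes and no alternative more than 12 of all genes. With so few calls, the absence of matrix genes there does not set them apart.

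The count for the replicate number, 32 of 38, ranged from 24 to 34 (29 to 34 when a library was left out). Per kb of the longest transcript instead of all exons, the median level of the 38 genes was 6.93 instead of 5.14 CPM per kb.

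Some log2 changes that were never called turned direction, and the cause was not tested. COL18A1 (etoposide against DMSO at 20, −0.17) became 0.11 without replicate 2 in all groups and 0.10 with the block and without etoposide 20 number 2. COL16A1 (DMSO arm, 20 against 0, 0.25) ranged from −0.022 to 0.449 and THBS1 (etoposide arm, 40 against 0, −0.14) from −0.323 to 0.073 when a library was left out. Scaling to 78 ribosomal protein genes moved the median of all genes by up to 0.129 on the log2 scale. Relative to all genes, the matrix genes' median of etoposide against DMSO stayed positive under it, at 0.084, 0.001 and 0.125 for 0, 20 and 40.

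At these depths 3 counts equal at least 0.259 CPM, so that levels of the 23 genes below the filter, and of COL4A3 in numbers 2 and 3, are not resolved.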

Other observations

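Of the marker lists, which were not part of the matrix comparisons, 13 of 18 genes of retinal pigment epithelium, 9 of 12 of fibroblasts, 1 of 9 of other epithelia and 2 of 12 of endothelium and blood were tested, and edgeR without the replicate block called none of them in the 9 treatment comparisons. With the block it called OTX2, a transcription factor of this epithelium, lower at 40 than at 0 in both arms. OTX2 had 21.4, 19.0 and 17.1 CPM at 40 and 38.3, 35.5 and 28.2 CPM at 0 in the etoposide arm, and 22, 17.2 and 17.2 CPM at 40 and 34.5, 36 and 24 CPM at 0 in the DMSO arm. The times do not overlap in either arm. The log2 change with the block was −0.82 in the etoposide arm (SE 0.12, edgeR adjusted p = 0.000382) and −0.74 in the DMSO arm (SE 0.12, edgeR adjusted p = 0.00111), and without it the adjusted p was 0.0825 and 0.104. The 9 tested fibroblast markers had medians of 0.090 and 0.027 on the log2 scale in these comparisons.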
